A study of Drosophila melanogaster with 4 samples.

Results

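The H3K23ac regions of the middle of chromosome arm 3L are the enriched regions whose midpoint lies from 2000001 to 22543557 on 3L. All positions count from 1 on release 5 of the FlyBase genome of Drosophila melanogaster, per the file headers. The span leaves out the outer 2 Mb at each end of the arm and holds 20.5 Mb of 24543557 bp, or 83.7% of the arm. It was chosen by position alone. Replicate 1 had 1674 such regions of 9467 in its whole list, replicate 2 had 1609 of 9142, and the combined list for the series had 2997 of 16244. The chromatin came from head nuclei of adult wild-type flies of the Oregon-R strain (Oregon-R-modENCODE), sieved from whole flies kept in population cages, with the stage given as mixed adult. There were 2 ChIP samples against H3K23ac and 2 input samples of unenriched chromatin, 1 for each ChIP sample; no file of the inputs was used here. Whether each replicate had its own batch of collected flies is not stated in the labels, and their spread may therefore be technical. The proportion of sexes is not stated, no files of other conditions were used here, and the number of reads behind each list is unknown.

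H3K23ac is the acetylation of lysine 23 in the tail of histone H3. Acetylation removes the positive charge of the lysine side chain, which loosens its hold on DNA, and it offers a docking site to reader proteins with bromodomains or related folds. In flies the acetyltransferase Enok and the CBP protein Nejire have each been described as writers of the mark, and it is found mostly at transcribed genes. A fly head holds brain and eye neurons, glia, cuticle, fat body and muscle, so each list describes a mixture of cell types. A low value in such bulk chromatin cannot tell apart fewer cells with the mark and less of the mark in each cell. No gene is named below, because the gene table used with these files belongs to release 6 and coordinates were not converted between releases.

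The 3L middle was marked by many short regions. Both replicates gave nearly the same picture: 81.5 regions per Mb in replicate 1 and 78.3 in replicate 2, or 79.9 ± 2.24 (SD, n = 2, as for all such values). Their union measured 4.17 Mb and 4.04 Mb, which was 20.0% ± 0.473 of the span. The combined list covered 44.9% of it, with 146 regions per Mb. The way the authors built the combined list is not described, and its values carry no SD or n.

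Most regions spanned several nucleosomes. Median widths were 1874 bp and 1905 bp in replicates 1 and 2. Both lists began at a width of 1301 bp, and 25.1% and 25.4% of regions were under 1500 bp, so the width distribution began abruptly. The upper 10% began at 4200 bp and 4153 bp, and the widest regions were 41780 bp and 35954 bp. In the combined list the shortest region was 1001 bp, the median 1911 bp and the widest 105589 bp.

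Neighbouring regions lay close together in some places and far apart in others. Median gaps were 3577 bp for replicate 1 and 3561.5 bp for replicate 2. The lowest 10% of gaps were at most 362 bp and 299 bp, while the upper 10% were at least 24248 bp and 26986 bp. Gaps under 1000 bp made up 24.1% and 24.2% of all gaps. Merging regions less than 1000 bp apart lowered the density to 60.6 per Mb and raised the median gap to 6187 bp (means of both replicates), so 1 region in the lists is not always 1 separate stretch of marked chromatin.

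The score of each region is the authors' own value. It lies on a log2 scale with an unknown zero point for each list, so it was ranked only within a list or differenced between parts of the same list. Regions of the 3L middle had a median score of 0.56 in each replicate, with the central 80% between 0.44 and 0.68 in replicate 1 and between 0.44 and 0.67 in replicate 2. The lowest and highest scores were 0.23 and 1.02 in replicate 1, and 0.27 and 1.12 in replicate 2. Wider regions tended to have higher scores, with a Spearman rho of 0.58 and 0.54 across the 1674 and 1609 regions, a description only since all regions of a list share 1 library. At the telomere-side border the nearest replicate 1 regions scored 0.60 outside the span and 0.48 inside it. At the centromere-side border they scored 0.69 inside and 0.61 outside. In replicate 2 the scores were 0.67 outside and 0.63 inside on the telomere side, and 0.41 inside and 0.56 outside on the centromere side.

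**Figure D1:**
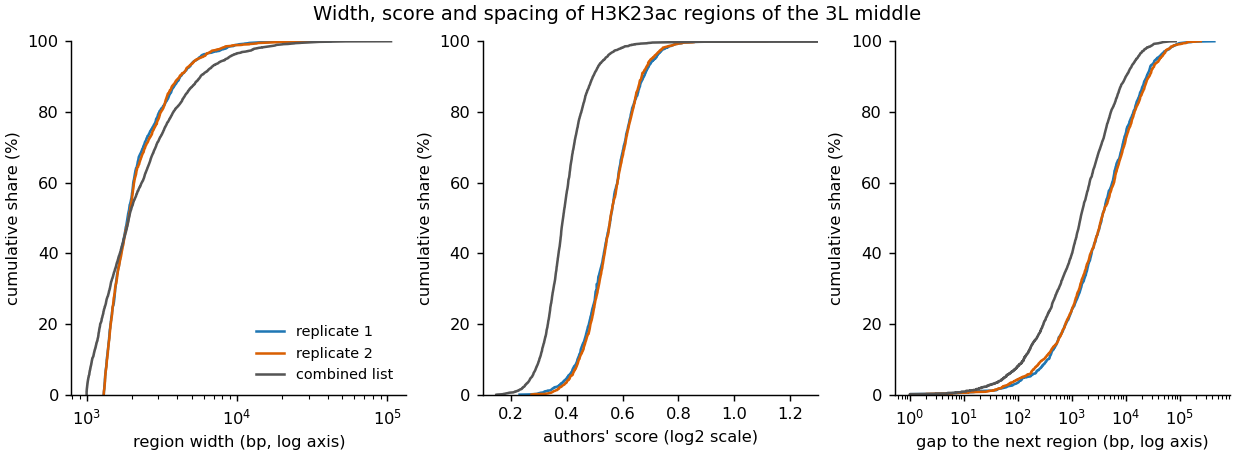
Cumulative share of regions of the 3L middle by width (bp, log axis), score (authors' value, log2 scale, axis ending at 1.3, which leaves out 4 combined regions) and gap to the next region (bp, log axis, gaps of 0 drawn at 1). The curves of replicate 1 (blue) and replicate 2 (orange) nearly coincide, with median widths of 1874 and 1905 bp, while the combined list (grey) has shorter gaps, with a median of 1447 bp.

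The 3L middle was set beside the middles of arms 2L and 3R and of the X chromosome, taken in the same way, and beside the 2 ends of 3L. A sign test over 2 replicates, exact and two-sided, has 0.5 as its smallest possible p, so each difference is given with its SD between replicates. The covered share of 20.0% stood 1.37 ± 0.665 points above that of the 2L middle, at 18.6% ± 0.192. It stood 2.19 ± 0.0706 points below that of the 3R middle, at 22.2% ± 0.402. Each of these differences had the same direction in both replicates and was larger than its SD. In replicate 2 the excess over 2L depended on the part from 22 Mb on. Before 22 Mb the 3L middle was covered over 19.4% in replicate 1 and 18.6% in replicate 2. The whole 2L middle, which was not cut in this way, had 18.5% and 18.8%. Replicate 2 thus had no excess over 2L there, while replicate 1 kept one. The combined list also kept an excess, with 43.8% against 42.7%.

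Region shape hardly separated the 3 autosomal middles. Median widths were 1889.5 bp ± 21.9 on 3L, 1886 bp ± 7.07 on 2L and 1915 bp ± 3.18 on 3R. The width difference of 3L from 2L, 3.5 bp ± 14.8, was within the spread between replicates. The difference from 3R, -25.75 bp ± 25.1, was about the size of its SD. Median scores were 0.56 on all 3, and 3L differed from 2L by -0.0015 ± 0.0009 and from 3R by -0.0046 ± 0.0031. The number of regions per Mb followed the order of the covered shares, with 75.2 ± 0.409 on 2L, 79.9 on 3L and 86.9 ± 1.51 on 3R.

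The X middle was less covered, at 11.2% ± 1.07, a difference of 8.82 ± 0.596 points from 3L. Its regions were narrower, by 168 bp ± 47.4 at the median, and their scores were higher, the 3L median being lower by 0.14 ± 0.0095 on the log2 scale. The shift reached the lowest scores, 0.42 and 0.41 on X against 0.23 and 0.27 on 3L. Whether X and the autosomes share a zero point within a list was not tested. When only regions above the median score of their whole list were kept, the difference in covered share between 3L and X was 0.768 ± 0.749 points. This cut takes more from 3L by construction: the lowest 10% of X scores ended at 0.57 in each replicate, above the 3L median of 0.56. The smaller difference therefore does not show that strongly scored coverage was alike on 3L and X. Between the ends of its own arm, the 3L middle lay 16.6 ± 1.13 points below the telomere-side 2 Mb, at 36.6% ± 0.654. Regions there were also wider, with a median of 2514 bp ± 45.3. The centromere-side 2 Mb were covered over 7.10% ± 0.559, a difference of 12.9 ± 1.03 points from the middle. This end includes at least 1.54 Mb with no region in any list, while its part before 23 Mb was covered over 29.1% and 32.5%, more than the middle.

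**Figure D2:**
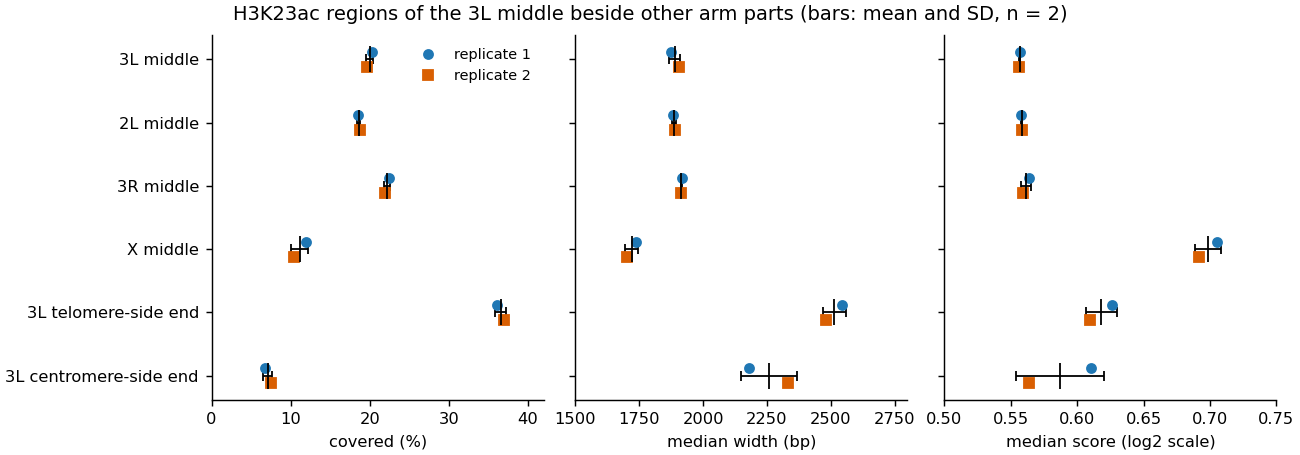
Covered share (%), median width (bp) and median score (log2 scale, within-list values) of H3K23ac regions in the 3L middle and 5 other arm parts. Blue circles are replicate 1, orange squares replicate 2, and black bars the mean and SD (n = 2); the 3L middle, at 20.0% covered, lies between the 2L middle at 18.6% and the 3R middle at 22.2%, and the X middle has the lowest median width and the highest median score.

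The next comparison asked whether the replicates marked the same places within the 3L middle. Of the replicate 1 regions, 1102 of 1674 overlapped a replicate 2 region by at least 1 bp, or 65.8%, against 67.5% over its whole list. Of the replicate 2 regions, 1114 of 1609 overlapped replicate 1, or 69.2%, against 69.7% over its whole list. Both shares were near those of the series. Under a reciprocal overlap of at least 50%, 709 regions of each replicate were matched, 42.4% and 44.1%, where the whole lists had 42.8% and 44.3%. The replicates shared 2.50 Mb of the 5.71 Mb marked in either, a Jaccard index of 0.439. In the 2L middle the index was 0.435, in the 3R middle 0.455 and in the X middle 0.265, parts whose covered shares differ too.

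Regions seen in both replicates were wider than those seen in 1. In replicate 1 the median was 2082 bp for the 1102 shared regions and 1572.5 bp for the 572 others. In replicate 2 it was 2088.5 bp for 1114 shared regions and 1545 bp for 495 others. A wide region also has more room to meet another list, so this is a description. Shared regions held 76.1% of the covered length of replicate 1 and 78.7% of that of replicate 2. No region of 10 kb or more was found in 1 replicate alone: the widest such regions were 4601 bp in replicate 1 (8450601 to 8455201) and 5042 bp in replicate 2 (4388111 to 4393152).

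Some regions of 1 replicate alone had a close neighbour in the other. The median distance to the nearest region of the other replicate was 2653.5 bp for the 572 regions of replicate 1 and 2489 bp for the 495 of replicate 2. For 149 and 125 of them it was under 1000 bp. No share over the whole lists was computed for these counts or the next, so none is read as a trait of this part. The combined list overlapped 564 of the 572 and 490 of the 495 single regions. Their median scores were 0.52 and 0.54, below the 0.57 and 0.56 of shared regions, but the ranges ran into each other: the central 80% of scores went from 0.42 to 0.63 in single regions of replicate 1 and from 0.46 to 0.69 in shared ones.

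Where 1 region matched exactly 1 other, their edges mostly lay more than 100 bp apart. Of 1289 overlapping pairs, 693 matched 1 region with exactly 1 other. Over these 693 pairs the median difference was 338 bp between starts and 323 bp between ends. The 90th percentile was 1398 bp for starts and 1430 bp for ends. Only 21.6% of starts and 24.2% of ends lay within 100 bp of each other. For the scores of the 693 pairs, Spearman rho was 0.44 and Pearson r was 0.47, given as a description, since all pairs share the same 2 libraries. In the other pairs 1 region met several: 165 regions of replicate 1 overlapped 2 or more of replicate 2, and 155 of replicate 2 overlapped 2 or more of replicate 1.

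The highest score of each replicate in the 3L middle belonged to a narrow region that the other replicate lacked. In replicate 1 it was 2080 bp wide, at 19763165 to 19765244, with a score of 1.02, and the nearest replicate 2 region lay 9321 bp away. In replicate 2 it was 1487 bp wide, at 22525322 to 22526808, with a score of 1.12, and replicate 1 came within 336 bp. High scores found in both replicates included the region at 18797768 to 18802736 in replicate 1, with 0.89. Its replicate 2 partner at 18797269 to 18802708 scored 0.86. A wide region near the centromere-side border, at 22366300 to 22401107 in replicate 1 and 22365138 to 22401091 in replicate 2, scored 0.85 and 0.86. These 2 places were among the 5 highest of both replicates.

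Along the arm, coverage was uneven and the replicates traced a similar course. Over full 1-Mb windows of the span, the least covered was 18 to 19 Mb, at 7.16% in replicate 1 and 6.59% in replicate 2, with 34 and 35 regions. Next came 15 to 16 Mb, at 10.5% and 10.2%, and 16 to 17 Mb, at 13.0% and 12.4%. The most covered were 2 to 3 Mb, at 33.8% and 32.5%, and 10 to 11 Mb, at 31.4% and 30.7%, with 117 and 121 regions. The poorly covered window at 18 to 19 Mb adjoined a well covered one at 19 to 20 Mb, with 26.2% and 24.3%. Median scores moved less than coverage, from 0.51 to 0.59 in replicate 1 and from 0.50 to 0.59 in replicate 2, and were lowest in each replicate at 18 to 19 Mb.

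In windows of 100 kb the span held 205 full windows. The median window was covered over 17.8% in replicate 1, 16.8% in replicate 2 and 43.2% in the combined list. The upper 10% of windows began at 40.1% and 39.0%, and the lowest 10% ended at 4.07% and 4.13%. The 20 most covered windows held 26.3% of the covered length of replicate 1 and 27.1% of that of replicate 2. A median window held 8 regions in each replicate and the fullest held 20. Windows with more coverage had slightly higher median scores, with a Spearman rho of 0.33 in both replicates over 181 windows with more than 2 regions, which share 1 library each.

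**Figure D3:**
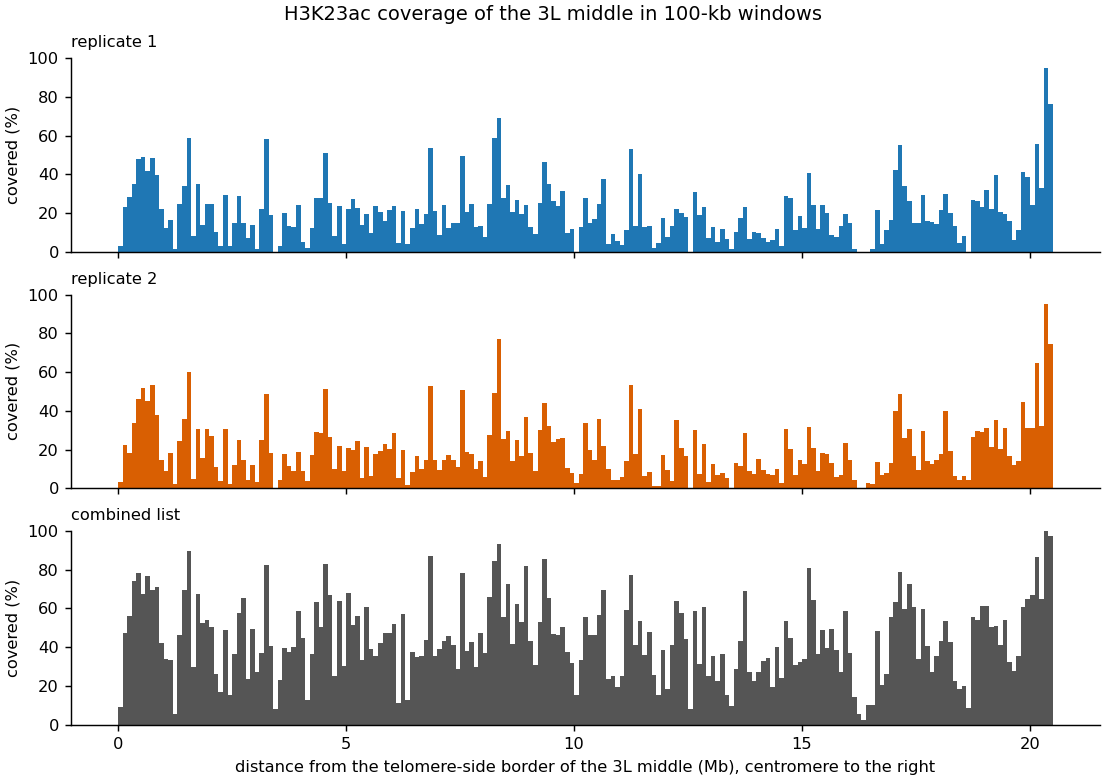
Share of each 100-kb window covered by H3K23ac regions (%), against the distance from the telomere-side border of the 3L middle (Mb), in replicate 1, replicate 2 and the combined list. The replicates follow a similar course, with a median difference of 2.75 points between their bars. Their tallest bars, 94.9% and 95.3%, are next to last on the centromere side, at 22300001 to 22400000.

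Replicates differed little within these windows. The median difference in covered share was 2.75 points, 7 of 205 windows differed by more than 10 points, and the largest difference was 15.8 points. That window, 12600001 to 12700000, was covered over 37.9% in replicate 1 and 22.1% in replicate 2. Replicate 1 was higher in 114 windows and replicate 2 in 87, with 4 windows at 0 in both. The Pearson r of the windows was 0.96 and the Spearman rho 0.94, as a description of windows from the same 2 libraries.

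**Figure D4:**
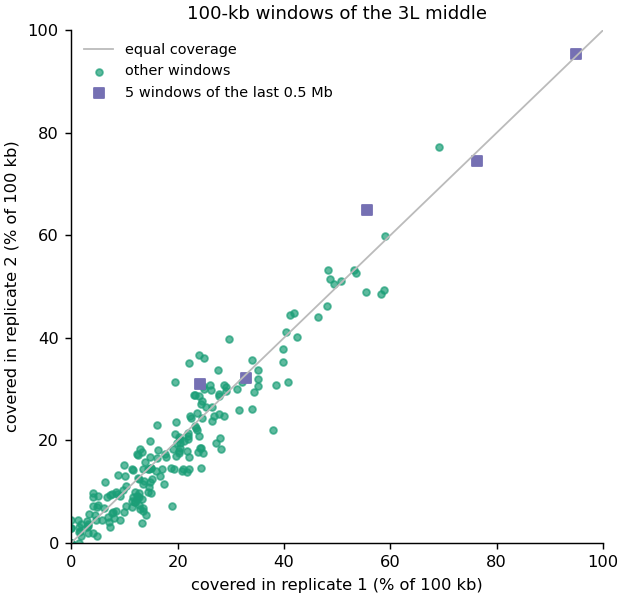
Covered share of each of the 205 full 100-kb windows of the 3L middle in replicate 1 (horizontal axis, %) and replicate 2 (vertical axis, %). Points follow the line of equal coverage, with a median difference of 2.75 points, and 3 of the 5 windows of the centromere-side zone (squares) lie above 50% in both replicates.

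The most covered windows were few and strongly marked. At 22300001 to 22400000, 94.9% was covered in replicate 1 and 95.3% in replicate 2. The next window, to 22500000, had 76.3% and 74.5%. The third, 10300001 to 10400000, had 69.2% and 77.2%. Then came 22100001 to 22200000, with 55.7% and 64.9%, and 3500001 to 3600000, with 59.0% and 59.8%. The other 5 of the 10 most covered windows had means from 52.1% to 54.0% and started at 5200001, 8800001, 10200001, 13200001 and 19100001. Only 20 windows reached 40% in both replicates, in 14 separate runs. The longest of these runs was 400 kb, at 2400001 to 2800000, covered over 46.7% and 48.9%.

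At the other extreme, 4 windows held no region in either replicate: those starting at 5400001, 14500001, 18200001 and 18300001. The other 6 of the 10 least covered windows had means from 0.700% to 1.89% and started at 3200001, 12000001, 13700001, 15400001, 18400001 and 18500001. In all, 22 windows were under 5% in both replicates, in 16 runs. The longest run was 500 kb, at 18100001 to 18600000, with 0.533% covered in replicate 1 and 1.88% in replicate 2. The combined list covered 8.51% of this run. It took in nearly all replicate regions, so this is no independent support.

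Wide domains, taken as regions of at least 10 kb, were rare in the replicates. There were 17 in replicate 1, or 1.02% of its regions, and 18 in replicate 2, or 1.12%, against 1.29% and 1.60% of the whole lists. They held 6.41% and 7.18% of the covered length. The combined list had 102, or 3.40% of its regions, against 4.45% of the whole list, and they held 20.7% of its length. The count depends on how regions are joined: after merging across gaps under 1000 bp the replicates had 52.5 on average, and at minimum widths of 5 kb and 20 kb they had 104.5 and 2.5. On the 2L middle there were 8.42 ± 0.744 such regions per 10 Mb and on the 3L middle 8.52 ± 0.344, a difference within the spread between replicates. It was 0.39 in replicate 1 and -0.18 in replicate 2, so the replicates differed in direction. The combined list had fewer on 3L, with 49.7 per 10 Mb on the 3L middle and 62.1 on the 2L middle. The 3R middle had 11.3 ± 0.592 in the replicates and 64.4 in the combined list.

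Each of the 102 wide domains of the combined list overlapped both replicates. The combined list took in nearly all replicate regions, so this is no independent support. The replicates covered a median of 70.7% and 72.8% of their length, and 79 of the 102 were covered over at least 50% in both. No share over the wide domains of the whole list was computed, so these counts are not read as a trait of this part. A wide domain overlapped a median of 3 regions in each replicate, up to 9 in replicate 1 and 13 in replicate 2. Together the 102 domains took up 9.30% of the span but held 33.2% of the covered length of replicate 1 and 34.9% of that of replicate 2. Their median score, 0.53, exceeded the 0.38 of narrower combined regions.

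The 5 widest regions of replicate 1 were 21875959 to 21917738, 22366300 to 22401107, 22343436 to 22361400, 22308292 to 22324813 and 10326036 to 10342365, between 41780 bp and 16330 bp. In replicate 2 they were 22365138 to 22401091, 21893849 to 21916422, 22419694 to 22440506, 10378200 to 10397200 and 22141300 to 22160092, between 35954 bp and 18793 bp. In each replicate 4 of the 5 lay toward the centromere side, from 21875959 on.

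Of the 10 widest combined regions of the 3L middle, 5 started at 21874156 or beyond. The widest was 105589 bp, at 22295546 to 22401134. The second, at 5188250 to 5240966, was 52717 bp wide and overlapped 9 and 11 replicate regions, which covered 83.6% and 79.8% of it. The third was 49737 bp, at 13222016 to 13271752, covered over 87.5% and 80.5%. The fourth, 43555 bp at 21874156 to 21917710, was little broken: replicate 1 had a single region of 41780 bp there and replicate 2 had 2, which covered 95.9% and 93.1%. The others were 22401834 to 22440608, 22161988 to 22197214, 8820610 to 8854232, 10365414 to 10397894, 22129214 to 22161126 and 19136118 to 19166990, between 38775 bp and 30873 bp wide. These 6 were covered over 67.3% to 94.6% in either replicate.

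Unmarked stretches, taken as 50 kb or more without a region, numbered 53 in replicate 1 and 59 in replicate 2. They made up 23.02% and 23.6% of the span. In the 2L middle they were 30.8 ± 1.86 per 10 Mb, in the 3L middle 27.3 ± 2.07 and in the 3R middle 23.8 in each replicate. The 3L middle differed from 2L by -3.51 ± 3.92, which is within the spread, and from 3R by 3.41 ± 2.07. Only 35 stretches, 2.90 Mb or 14.1% of the span, were free of regions in both replicates at once. With minimum lengths of 30 kb and 100 kb there were 90 and 6.

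The longest stretch free of regions in both replicates was 243711 bp, at 18177256 to 18420966; when regions under 1500 bp were left out, the longest was 404 kb. In replicate 1 it was part of a bare stretch of 434948 bp, from 18119025 to 18553972. Replicate 2 broke that stretch with 4 regions, between 1353 bp and 2353 bp wide and with scores of 0.60 to 0.65. The second longest was 201904 bp, at 5339973 to 5541876. It was followed by 12009196 to 12151597, 14492230 to 14626598, 15410013 to 15524075 and 4417038 to 4523535, between 142402 bp and 106498 bp long. The last 4 of the 10 longest, 12928099 to 13023348, 18464024 to 18553972, 20531235 to 20619187 and 13765951 to 13850357, were between 95250 bp and 84407 bp. The eighth lay within the same bare stretch of replicate 1 as the first.

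Stretches bare in both replicates were not empty in the combined list. Each of the 35 held at least 1 combined region, and together they held 200, which covered 10.4% of their length. These regions were narrow, with a median of 1227 bp and a maximum of 3585 bp. Elsewhere in the span, the combined list covered 27.5% of the sequence that neither replicate marked. The stretches were chosen by the replicate lists, so this contrast is a description only. In the combined list itself, 7 stretches reached 50 kb. The longest was 83601 bp, at 18337359 to 18420959, and lay inside the 243711-bp stretch. The second, of 65279 bp at 2039645 to 2104923, lay near the telomere-side border.

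The zone from 22 Mb to the border of the span was covered more than the rest of the 3L middle. Over these 0.544 Mb, 55.5% was covered in replicate 1 and 57.6% in replicate 2, against 19.4% and 18.6% over the other 20 Mb. The zone held 65 regions in replicate 1 and 72 in replicate 2, or 120 and 132 per Mb, against 80.5 and 76.9 elsewhere. The combined list, whose regions there were longer, had fewer per Mb in the zone, 116 against 147, but covered 83.2% of it against 43.8%. Its regions were also wider, with medians of 2411 bp in replicate 1, where the rest had 1862 bp, and 2770.5 bp in replicate 2, where it had 1893 bp. The median gap was 1710 bp in the zone and 3694 bp elsewhere in replicate 1, and 1164 bp and 3739.5 bp in replicate 2, and no gap in the zone was longer than 23130 bp. Scores followed, with medians of 0.59 and 0.61 in the zone and 0.56 and 0.55 elsewhere. Regions of at least 10 kb numbered 6 in each replicate, so 6 of 17 and 6 of 18 lay in this zone. The zone was named with earlier results of these data known, and these contrasts describe 1 place on 1 arm with no test.

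Within the zone, the combined list had 10 regions of at least 10 kb. From telomere to centromere they began at 22041058, 22129214, 22161988, 22197382, 22217994, 22295546, 22401834, 22440690, 22467056 and 22511664. The sixth, of 105589 bp, overlapped 9 regions in replicate 1 and 13 in replicate 2, which covered 94.9% and 95.2% of it. Its breaks were short: none within it exceeded 1511 bp in replicate 1 or 1164 bp in replicate 2. Neither replicate marked 6 pieces of it, of 27 to 387 bp. Its last part was a single region in each replicate, 34808 bp and 35954 bp wide. The next domain, of 38775 bp, was covered over 87.0% and 94.6%. The last of the 10 differed most between replicates, with 67.5% covered in replicate 1 and 27.3% in replicate 2.

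Past the dense domains marking was thinner and uneven, and then stopped. Window by window from 22 Mb, the covered share of replicate 1 was 24.1%, 55.7%, 32.8%, 94.9%, 76.3%, 33.2%, 11.0%, 39.7%, 43.7% and 22.9%. In replicate 2 it was 31.0%, 64.9%, 32.1%, 95.3%, 74.5%, 31.1%, 24.2%, 39.8%, 44.3% and 24.0%. Only the first 5 of these 10 windows lie in full within the span. In the following window, from 23000001, all 3 lists were at 0. The last region of the arm ended at 22973292 in replicate 1, at 22999374 in replicate 2 and at 22999376 in the combined list, which left 1.57 Mb, 1.54 Mb and 1.54 Mb of 3L without a region. In the 0.456 Mb between the border of the span and 23 Mb, 29.1% and 32.5% was covered, still above the 19.4% and 18.6% of the span before 22 Mb. No region there reached 10 kb in either replicate. How well reads map in the sequence beyond 23 Mb was not tested, so an unmarked stretch there means only that no region was listed.

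**Figure D5:**
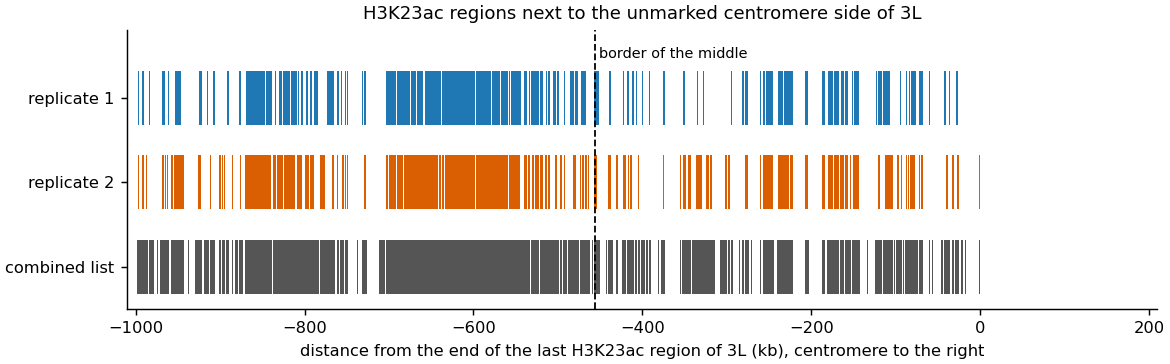
H3K23ac regions of 3L from 22 Mb on, as bars along the distance from the end of the last region of the arm (kb, 0 is the end in the combined list), in replicate 1 (blue), replicate 2 (orange) and the combined list (grey); the dashed line is the border of the 3L middle. The block of nearly unbroken bars to the left of the line holds the combined domain of 105589 bp, and no bar stands to the right of 0.

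The combined list split by its overlap with the replicates much as it did over the whole series. Of its 2997 regions, 805 overlapped both replicates, or 26.9% (exact binomial 95% interval 25.3 to 28.5, covering counting over regions only), against 27.9% of the whole list. Another 14.9% overlapped replicate 1 only and 12.4% replicate 2 only, against 14.8% and 12.9%. The remaining 1374, or 45.8% (44.1 to 47.6), overlapped neither, against 44.4%. Regions in both had a median width of 4589 bp and a median score of 0.46, and they accounted for 55.8% of the combined length. For regions in neither, the median width was 1319 bp and the median score 0.37, and 660 of them were shorter than the shortest replicate region. When each replicate had to cover at least 50% of a combined region, 15.4% of regions were in both. No share over the whole list was computed for this rule, so it is not read as a trait of this part.

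The highest combined scores of the 3L middle belonged to narrow regions outside both replicate lists. All 8 regions with a score of at least 0.8 overlapped neither replicate, and the widest of them was 1193 bp. All were thus shorter than the shortest replicate region, of 1301 bp. No share over the whole combined list was computed at this score, so the count is not read as a trait of this part. The highest combined score was also 3.06 in the X middle, and it was 3.30 in the 3R middle and 2.18 in the 2L middle. The top 3, at 7881120 to 7882120, 9930522 to 9931522 and 16437002 to 16438004, had the identical score of 3.06. The fourth, at 7674520 to 7675520, scored 1.74. The next 4, at 9526706 to 9527750, 8226406 to 8227494, 19391808 to 19392834 and 9385450 to 9386642, scored from 0.83 to 0.89. The next 2 were found in both replicates, at 18796382 to 18802824 with 0.78 and at 17654150 to 17658380 with 0.77. The first of these is the place that also scored among the 5 highest in each replicate, and it was covered over 77.1% and 84.4%.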

How the data were processed

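H3K23ac ChIP-seq of adult fly head nuclei was analysed from 3 deposited lists of enriched regions, 1 for each of 2 ChIP samples and 1 for the series. Bowtie 0.12.7, which aligns short reads, is listed in the submitters' processing notes. The sources used here do not name a peak caller, a threshold, read numbers or the way the combined list was made. No counting precision could be computed. Starts and ends are on FlyBase release 5, per the file headers. The deposited scores were taken as log2 values because 2 to the power of score differences gave a ratio of whole numbers (tolerance 1e-12, denominators up to 20000) for 100% of replicate regions and 99.6% of combined ones, and for at most 0.150% of random scores.

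Members were taken by midpoint. Covered length is the union of regions, gaps are counted between neighbouring members, and windows of 100 kb start at the telomere-side border. Replicate values are given as mean and SD with no test across features. The alternatives were a score cut at the median of each list, merging across gaps under 1000 bp, removal of regions under 1500 bp, the combined list, leaving out a replicate, and other overlaps, window sizes and minimum lengths. The interval functions were checked on simulated regions. Python 3.11.15, numpy 2.4.6, pandas 2.3.3 and scipy 1.17.1 were used. Named regions were the 10 widest and 10 highest-scoring combined regions, the widest 5 of each replicate, the 10 most and least covered windows, the 10 longest stretches bare in both replicates and the combined regions of at least 10 kb from 22 Mb on; other named regions were chosen after their values were seen. The span, the groups and the rules were chosen with earlier results of these data known. No genome of release 5 was used here, so no sequence is printed.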

Additional observations from a re-analysis of the deposited data

How the results depend on the processing

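Of the values run under alternatives, 0 reversed. Between arm parts and for the zone, only covered shares were among them. Differences in regions per Mb, width, score, gap, wide domains and unmarked stretches were not. In the combined list the zone had fewer regions per Mb than the rest, opposite to the replicates. The 3L middle had more regions per Mb there than the telomere-side end (146 against 104.5), also opposite to the replicates. It had fewer wide domains per 10 Mb there than 2L, where the replicates differed in direction. Its median gap differed from that of 2L by -20 bp in the combined list, opposite to the replicates, with 104.5 bp ± 108. Its median width differed from that of 2L by -1 bp in the combined list, and by -7 bp and 14 bp in the replicates. The main values were each rerun under several settings. Of these reruns, 61 stayed within the SD, within 1.5 times (counts and indices) or within the exact interval (share of combined regions). The other 58 did not. Leaving out a replicate cannot move a mean of 2 by more than the SD, so those cases, counted among the 61, show nothing. No paired analysis was possible because ChIP and input were not compared here and no result comes from a test across features; differences between arm parts were taken within each replicate. The depth is unknown, so regions missing from a list may lie under the calling threshold. Unless the construction shows it, the cause was not tested.

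With regions above the median score only, the covered share of 20.0% was 10.9%, the density 31.7 per Mb, the median width 2559 bp, the median score 0.63, the median gap 10571 bp and the median window 6.65%. Differences in covered share were then -1.70 points from 3R, 0.768 ± 0.749 from X, -19.6 from the telomere-side end and 6.29 from the centromere-side end. The overlap of the replicates, a mean of both lists, was 52.7% and the share of combined regions in both 23.6%. Unmarked stretches numbered 108, and those bare in both replicates 86. Here and below, the zone was taken to 23 Mb, past the border of the span. Its main covered share was then 44.8%, a mean of both replicates, and with this score cut it was 34.8%.

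With regions under 1000 bp apart merged, the covered share was 20.8%, the density 60.6, the median width 2002 bp, the gap 6187 bp, the window 18.1%, the difference from 3R -2.31 points, the combined regions in both 34.5% and the wide domains 52.5. Without regions under 1500 bp they were 17.2%, 59.8, 2116 bp, 4570 bp, 14.01%, -2.09 points and 29.3% in that order, wide domains not moving. The score was then 0.57 and the difference from the centromere-side end 10.6 points. Stretches bare in both replicates numbered 55, and the zone to 23 Mb was 41.7% covered.

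The combined list gave 44.9%, 146 per Mb and a score of 0.39 (not comparable with the replicates). It had a median gap of 1447 bp and a median window of 43.2%. It held 102 wide domains and 7 unmarked stretches, and covered 71.7% of the zone to 23 Mb. Its differences were 2.14 points from 2L, -3.09 from 3R, 10.3 from X, -12.5 from the telomere-side and 31.5 from the centromere-side end. A reciprocal overlap of 50% gave 43.2%, and coverage of 50% by each replicate 15.4%. The median window was 14.9% at 50 kb, 16.5% at 200 kb and 15.8% when shifted by 50 kb. Wide domains numbered 104.5 at 5 kb and 2.5 at 20 kb. Unmarked stretches numbered 121.5 at 30 kb and 11 at 100 kb, and those bare in both 90 and 6.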
